A study of Homo sapiens with 6 samples.

Results

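The genes that encode the proteins of the small (40S) subunit of the cytosolic ribosome were followed in Calu-6 cells, an established lung cancer line, after siRNA treatment against the TERT variant Delta 2-4. The members were the genes named RPS followed by a number, with an optional A, X or L, together with RPSA and FAU. Retrocopies, which are intronless copies of a gene named with a P, were not members. These rules gave 33 of the 10072 genes in the count table and 421 of its 21472 transcript models. Most of these genes differed little between the groups. RPS28, RPS2, RPS15 and RPS21 fell by 0.29 to 0.56 on the log2 scale after the knockdown, and RPS26 rose by 0.68. RPS28 and RPS26 rested on 345 and 294 counts, and none of these changes passed the test without library 2 of the knockdown group. Retrocopies named after RPS28 held 35160 counts, and with such copies added to their genes RPS28 had -0.22 and RPS26 0.41. For 26 of the 33 members the log2 fold change was within 0.2 of 0, and all 33 together took 8.62% ± 0.256 of the library count in siControl and 8.52% ± 0.303 in siDelta2-4 (mean ± SD, n = 3 each).

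The siControl group had received a non-silencing siRNA and the siDelta2-4 group an siRNA across the junction of TERT exons 1 and 5, both at 10 nM for 48 h, with 3 libraries in each group. The labels call the genotype of all 6 samples WT, while the count columns carry "Empty", the word the study used for cells holding an empty Flag-V5 vector, and the study's methods name such vector cells for this knockdown. Polyadenylated RNA was made into barcoded PCR-cDNA libraries that were pooled and read on 1 nanopore flow cell, and libraries are numbered here as in the count columns. The study calls the libraries biological replicates, while the labels give barcodes and do not name separate cultures, so the p-values measure the spread between these libraries.

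Library totals ran from 1037468 to 1309241 counts. No TERT model was in the table, so the knockdown itself was not checked here. Of the 5 markers listed for the line, KRT8, KRT18 and VIM had 824, 1124 and 987 counts in all, while EPCAM had 13 and KRT19 had 1. The markers of leukocytes, T cells, endothelium and fibroblasts (PTPRC, CD3E, PECAM1 and COL1A1) had 0 counts in every library. In such bulk libraries, fewer cells with an mRNA and less of it per cell cannot be told apart.

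The small subunit binds the mRNA, carries the decoding centre and scans for the start codon before the large subunit joins. Its proteins sit around the 18S rRNA, some in the head, which closes over the mRNA channel, and the others in the body and platform, where the mRNA leaves. Their mRNAs are among the most abundant of growing cells and typically begin with a C followed by a run of pyrimidines, the 5′ terminal oligopyrimidine (5′TOP) tract, through which their translation is coupled to growth signals. Human genomes hold many retrocopies of these genes, and reads can be divided between a gene and its copies.

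The 30 bases around the annotated transcription start are shown for the called members that had a RefSeq entry (RPS28, RPS15, RPS21 and RPS26) and for the 3 entries with the smallest change (RPS10, RPS23 and FAU). They run 5′ to 3′ on the strand of the gene, from 10 bases before the start to the first 20 bases of the transcript. Capitals mark a tract that begins with C at the start itself and goes on with at least 4 pyrimidines.
RPS28: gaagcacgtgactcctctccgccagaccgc
RPS15: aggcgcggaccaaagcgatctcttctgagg
RPS21: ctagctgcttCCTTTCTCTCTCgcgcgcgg
RPS26: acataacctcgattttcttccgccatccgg
RPS10: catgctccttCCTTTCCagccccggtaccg
RPS23: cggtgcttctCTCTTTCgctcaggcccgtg
FAU: tcgcttcttcCTCTTTCTCgactccatctt
On RefSeq GRCh38.p14 these windows lie at chr19:8321486-8321515 (+) for RPS28, chr19:1438386-1438415 (+) for RPS15, chr20:62387093-62387122 (+) for RPS21 and chr12:56041908-56041937 (+) for RPS26. Those of RPS10, RPS23 and FAU lie at chr6:34426050-34426079 (-), chr5:82278335-82278364 (-) and chr11:65122115-65122144 (-).

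RefSeq windows were given for 26 of the 33 members, and RPS2 was one of the 7 without. In 19 of the 26 (73.1%) the tract began at the annotated start, against 4.07% of 35116 windows of all genes. Within 10 bases of the start such a tract was found in 23 of the 26 members and in 33.5% of all windows. The tracts at the start were 6 to 14 bases long, with a median of 9. Among the called members RPS21 had the tract at its annotated start and RPS28, RPS15 and RPS26 did not. The median log2 fold change was -0.075 in the 19 members with the tract and -0.14 in the 7 without, and this difference was not tested. The annotated start can lie away from the start used in these cells, so a window without the tract does not say that the mRNA lacked it.

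Levels of different genes were compared as library-scaled counts (CPM) per kilobase of deposited model length, a length that belongs to the reference model and not to the read. RPS20, a head protein, had the highest level on this scale, at 13000, and RPS13 and RPS12 followed at 9450 and 8510. RPS26, at 37.7, RPS28, at 38.6, and RPS27L, at 39.6, were the lowest on it. Each read counts once, so dividing by length lowers genes with long models. RPS27L, with a mean model length of 6008 bases, had 238 CPM, above RPS27 and RPS9 at 62.2 each. These levels leave out reads placed on retrocopies. By CPM alone RPS19, RPS20 and RPS14 were the most counted members. RPS19, a head protein that is mutated in Diamond-Blackfan anaemia, had 7749, 7232 and 6498 CPM in siControl libraries 1, 2 and 3 and 6904, 6443 and 6692 in siDelta2-4 libraries 1, 2 and 3. These values overlapped, with a log2 fold change of -0.10 ± 0.08 (SE). RPS20 and RPS14 had changes of -0.05 ± 0.08 each. Control libraries of these 3 genes thus lay further apart than the group means did.

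The main question was how the knockdown moved each gene, asked with edgeR's two-sided quasi-likelihood test on all 3888 genes that passed the filter on low counts. All 33 members passed it. At a Benjamini-Hochberg adjusted p under 0.1, 5 members (15.2%) were called, beside 13% of all genes tested. Lower calls took 4 of the 33 members, beside 5.97% of all genes, and higher calls 1 of the 33, beside 7%. CPM values did not overlap between the groups in 7 members (21.2%), beside 26% of all genes. With both directions together, the share called is near that of all genes, and the share not overlapping is below it. Lower calls alone took a larger share of the members than of all genes, and higher calls a smaller one. The unadjusted p was under 0.05 in 6 members (18.2%), beside 23.1% of all genes tested.

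**Figure D1:**
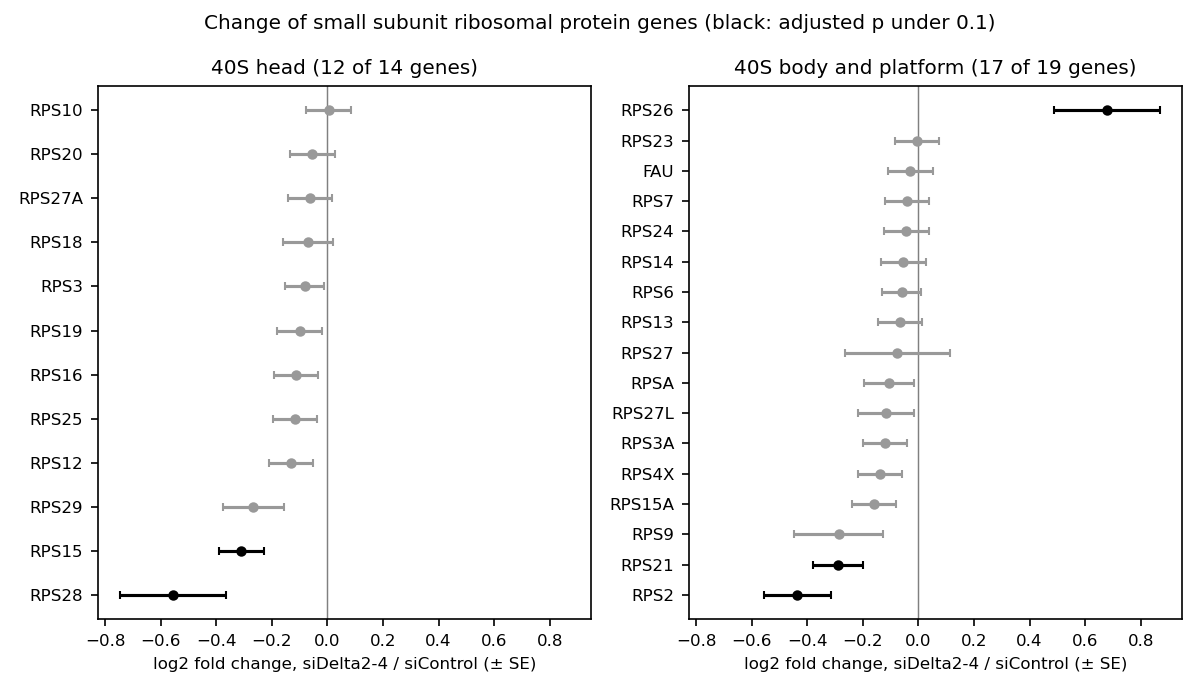
Log2 fold change of 29 of the 33 genes, siDelta2-4 over siControl (x axis, fitted value with its SE), in the head (left, 12 of 14 genes) and in the body and platform (right, 17 of 19 genes); black points passed an adjusted p of 0.1. Most points sit just left of 0, with RPS28, RPS15, RPS2 and RPS21 lowest among the called genes and RPS26 alone far to the right.

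Small negative values were the rule. The log2 fold change was below 0 in 31 of the 33 members, beside 46.1% of all genes tested, and its median was -0.08 beside 0.03 for all genes. With library totals alone as the scale, 20 of the 33 were below 0, and the median of the members was -0.01 beside 0.095 for all genes, since this scaling raises every gene by a like amount. On annotated models alone, 30 of 32 tested members were below 0, with a median of -0.118 beside 0.015 for all genes. Without a filter on low counts the median was -0.098 for the members and 0.192 for all genes. In the main fit the SE was 0.1 or less for 27 members. After a trend of the changes on transcript length was removed, 21 members were below 0 and 10 were called lower, beside 7.28% of all genes, and RPS26 remained the one called higher.

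In the head, RPS28 and RPS15 fell, the other 12 of 14 genes did not pass the test, and the median log2 fold change was -0.09. RPS28 is a small protein near the mRNA exit. Its level was 68.2, 68.1 and 49.8 CPM in siControl and 43.1, 34.1 and 49.1 in siDelta2-4. The lowest control library thus lay just above the highest siDelta2-4 library, and the log2 fold change was -0.56 ± 0.19 (SE, edgeR adjusted p = 0.0657). RPS28 rested on 345 counts over the 6 libraries.

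RPS15, a head protein whose tail reaches the decoding centre, was much better covered, with 9311 counts. Its CPM was 1643, 1540 and 1472 in siControl and 1387, 1228 and 1144 in siDelta2-4, with no overlap. The change was -0.31 ± 0.08 (edgeR adjusted p = 0.0214).

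Among the head genes that did not pass, RPS29, a zinc-binding protein beside the mRNA channel, came nearest. It had 266, 238 and 225 CPM in siControl and 185, 188 and 231 in siDelta2-4, where library 3 overlapped with the controls. Its log2 fold change was -0.27 ± 0.11 (edgeR adjusted p = 0.143). RPS10, which meets collided ribosomes at the head and is ubiquitylated there, had 2727, 2631 and 2447 CPM in siControl and 2793, 2316 and 2720 in siDelta2-4. These values overlap fully, and the log2 fold change was 0.00 ± 0.08. RPS27A is made as a fusion of ubiquitin with a ribosomal protein, and its level was 5215 to 6321 CPM in siControl and 5154 to 6040 in siDelta2-4. RPS12, RPS25 and RPS16 had log2 fold changes of -0.13, -0.12 and -0.11, and none of them passed.

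In the body and platform, RPS2 and RPS21 fell and RPS26 rose, and the other 16 of 19 genes did not pass the test, with a median of -0.08 for the list. RPS2, whose protein lines the mRNA entry channel, had 161, 185 and 211 CPM in siControl and 147, 132 and 134 in siDelta2-4. All 3 siDelta2-4 libraries lay below the lowest control, and the log2 fold change was -0.44 ± 0.12 (edgeR adjusted p = 0.0226). On annotated models alone it was -0.78 (edgeR adjusted p = 0.00579), in a fit that called 6 members lower beside 7.12% of all genes. RPS21 had 1762, 1508 and 1268 CPM in siControl and 1225, 1283 and 1205 in siDelta2-4. Here the groups overlapped, since control library 3 was below siDelta2-4 library 2, and the fitted change was -0.29 ± 0.09 (edgeR adjusted p = 0.0522).

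RPS26, which touches the mRNA just upstream of the start codon at the exit, was the single member called higher. It had 33.1, 30.7 and 35.4 CPM in siControl and 48.7, 61.8 and 48.3 in siDelta2-4. The groups did not overlap, and the log2 fold change was 0.68 ± 0.19 (edgeR adjusted p = 0.0269). With 294 counts in all it was the least counted member.

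**Figure D2:**
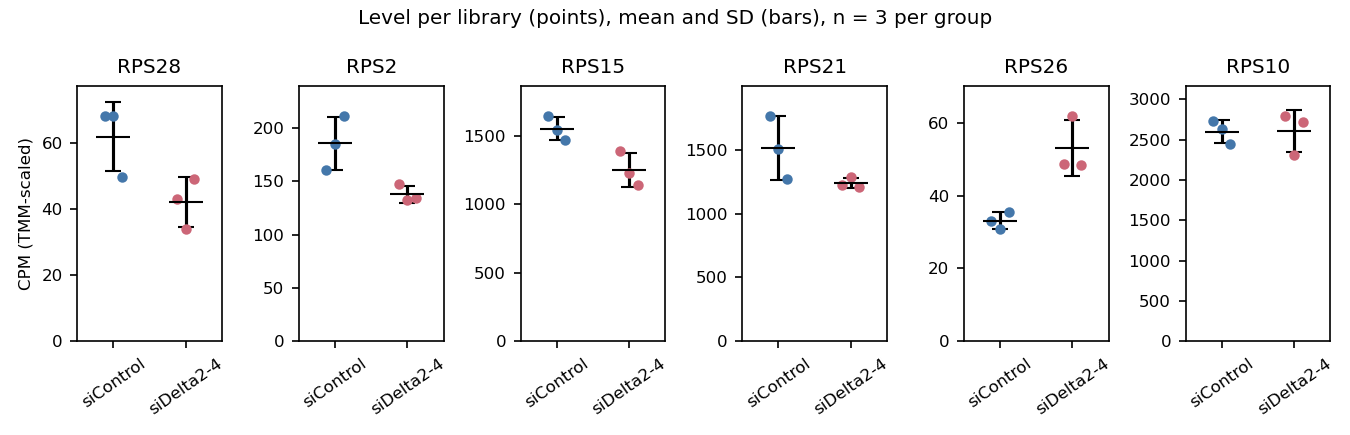
CPM on TMM-scaled library totals (y axis, from 0, its own scale in each panel) for the 5 called genes and for RPS10, in 3 siControl (blue) and 3 siDelta2-4 (red) libraries; horizontal marks are means and bars are SD. The groups separate for RPS28, RPS2, RPS15 and RPS26, touch for RPS21 and coincide for RPS10.

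RPS9, RPS3A and RPSA also had values that did not overlap, but did not pass the test. RPS9, a body protein at the mRNA entry, had 66.3, 71.0 and 68.0 CPM in siControl and 54.3, 56.9 and 56.8 in siDelta2-4. The tight libraries gave a log2 fold change of -0.29 ± 0.16 (edgeR adjusted p = 0.274) on 415 counts. RPSA, also known as a laminin receptor, had 459, 481 and 490 CPM against 454, 434 and 440, a log2 difference of -0.11. FAU, in which a ubiquitin-like protein is fused to RPS30, had 2247, 2171 and 2006 against 2290, 2017 and 1992, a log2 difference of -0.03. RPS23, whose protein reaches the decoding centre, had a log2 fold change of -0.01 ± 0.08.

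RPS27 and its paralog RPS27L encode near-identical proteins, of which RPS27L is a p53 target. RPS27 had 66.3, 73.8 and 51.7 CPM in siControl and 61.8, 42.3 and 77.5 in siDelta2-4, so that siDelta2-4 held both the lowest and the highest library. Its log2 fold change was -0.08 ± 0.19. RPS27L had 260, 238 and 243 CPM against 245, 226 and 213, with a log2 fold change of -0.12 ± 0.10. Neither passed the test.

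Most of the 33 genes shared a shift from library to library. The siControl library 1 was the highest of the 6 for 22 members, and siDelta2-4 library 2 was the lowest for 25. On the log2 scale the median deviation of the members from their own 6-library means was 0.12, 0.07 and -0.07 in siControl libraries 1, 2 and 3, and 0.02, -0.14 and -0.03 in siDelta2-4 libraries 1, 2 and 3. Control library 3 thus lay below siDelta2-4 library 1. RPS26 ran the other way, and RPS2, RPS3A and RPSA were highest in control library 3. The members' share of the library count was 8.76%, 8.76% and 8.32% in siControl and 8.85%, 8.25% and 8.46% in siDelta2-4. The groups overlapped in this share, and their means differed by -0.0966 percentage points. This difference was 0.0382 without siDelta2-4 library 2 and -0.26 without siDelta2-4 library 1.

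**Figure D3:**
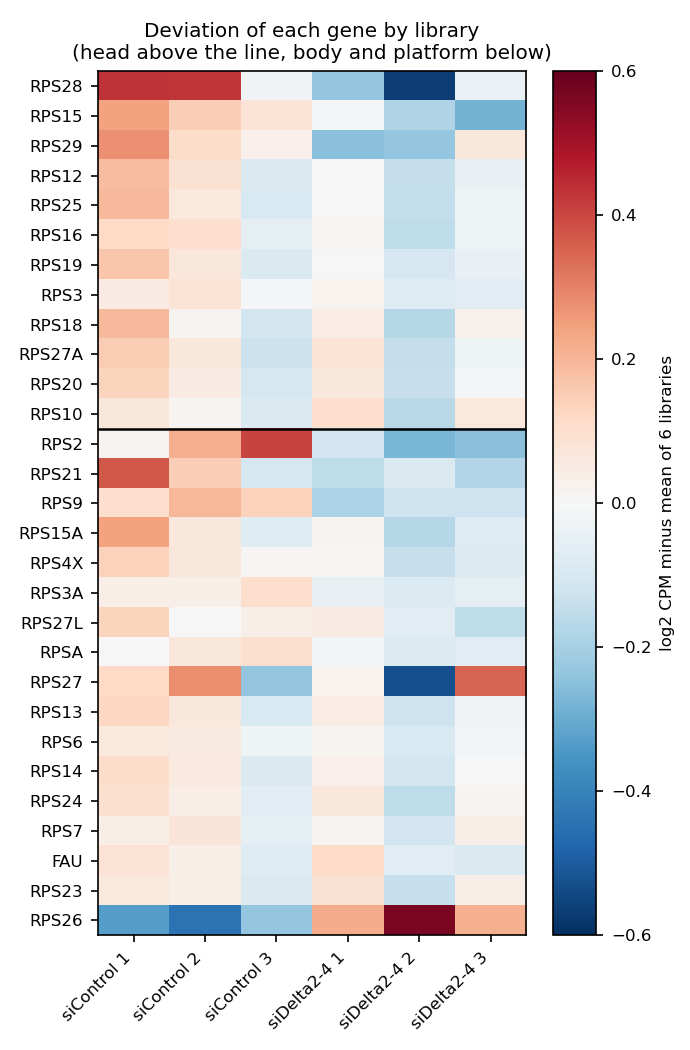
Deviation of log2 CPM from the gene's mean over the 6 libraries (colour, red above and blue below) for 29 of the 33 genes (rows) in each library (columns). siControl library 1 is red in nearly every row and siDelta2-4 library 2 blue, with RPS26 running the other way.

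The calls depended on these libraries. Without siDelta2-4 library 2, edgeR called 0 of the 33 members, with 5 at an unadjusted p under 0.05, beside 4.85% of all genes called in that fit. Without siControl library 3 it called 14, beside 25.4% of all genes. Across the 6 fits on 5 libraries, RPS2 was called in 5, RPS15 and RPS26 in 4, RPS28 in 2 and RPS21 in 1. All 5 kept their direction in every one of these fits.

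Several members shared their family's reads with retrocopies. In 7 members the named retrocopies in the table held over 0.5 counts for each count of the gene, and in 22 under 0.05. RPS28 was the extreme case, since its retrocopies held 35160 counts, of which RPS28P7 had 35128, beside 345 for the gene. RPS27 had 418 counts beside 15407 on its retrocopies, 14892 of them on RPS27P3. RPS18 had 5312 beside 12476, RPS15 had 9311 beside 7996, RPS2 had 1071 beside 804, and RPS26 had 294 beside 350. RPS21 had 9162 beside 216.

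**Figure D4:**
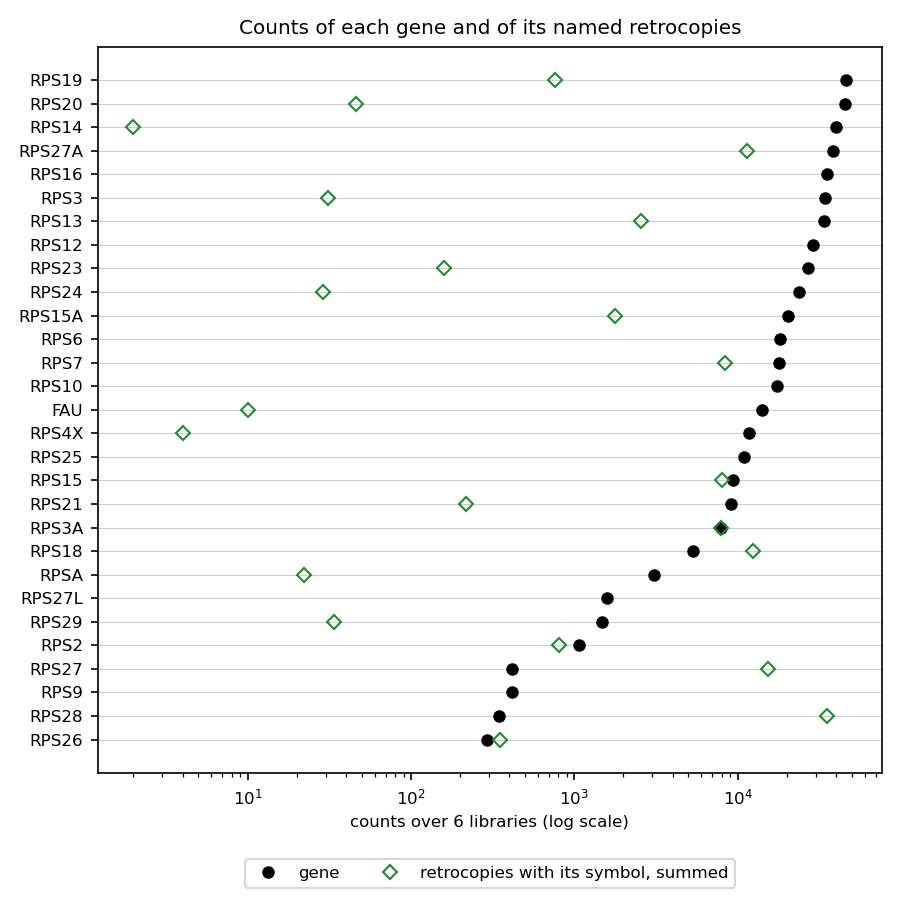
Counts summed over the 6 libraries (x axis, log scale) for 29 of the 33 genes (black) and for the named retrocopies of each together (green diamonds, absent where there were 0). The diamonds of RPS28, RPS27 and RPS18 stand to the right of the gene, and that of RPS26 just right of it.

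With the named retrocopies added to their genes, a comparison chosen after the data were seen, 5 members were called lower and 1 higher, beside 13% of all genes called. RPS28 then had a log2 fold change of -0.22 (edgeR adjusted p = 0.0897) where the gene alone had -0.56. RPS26 had 0.41 (edgeR adjusted p = 0.0781) where the gene alone had 0.68. RPS2 and RPS15 stayed near their own values, at -0.42 and -0.31, and RPS27 joined the calls at -0.30 (edgeR adjusted p = 0.036). RPS15P4 by itself had -0.32 (edgeR adjusted p = 0.0109) and RPS2P46 had -0.40 (edgeR adjusted p = 0.0688). RPS28P7 had -0.21 (edgeR adjusted p = 0.0937) and RPS27P3 -0.31 (edgeR adjusted p = 0.0347), while RPS26P6 had 0.99 (edgeR adjusted p = 0.0736). How the reads were divided between a gene and its copies was not tested.

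For 6 members a gene on the other strand held over 0.7 counts for each count of the member. These were RPS25 with CENATAC, RPS27A with CLHC1, RPS3A with SH3D19, RPS23 with ATG10, RPS4X with PIN4, and RPS28 with NDUFA7. RPS4X had 11776 counts and PIN4 12101, and RPS28 had 345 and NDUFA7 1550. Whether strand was used in the counting was not given in the sources used here, so reads of such partners may not be told apart.

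Members are also hosts of small nucleolar RNAs (snoRNAs), which are cut from introns and guide rRNA modification. Gencode 44 placed 19 snoRNA genes inside 9 members, with 3 in RPS12. Of the 5 called members, RPS2 is a host, of SNORA10 and SNORA64.

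Long reads give the structure of each mRNA as well as its level. Annotated models took 79.5% ± 0.306 of the members' counts in siControl and 79.2% ± 0.123 in siDelta2-4 (n = 3 each). Models that lacked 5′ exons took 13.3% and 13.4%, new combinations of known splice sites 4.99% and 5.10%, and models with a new splice site 1.16% and 1.19%. Annotated retained-intron models, 37 in 22 members, took 1.35% ± 0.0539 and 1.41% ± 0.0672. Each of these shares differed by under 1 percentage point between the groups.

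One model usually carried a gene. Its share of the gene's counts ran from 41.3% to 99.0%, with a median of 81.8%, and it was over 70% in 27 members. It was the MANE Select model, the reference transcript chosen jointly by Ensembl and RefSeq, in 30 of 33. The exceptions were RPS24, RPS15A and RPS27A. RPS27A was counted mostly on a model that lacks 5′ exons of the annotation (81.7%), and RPS15A on RPS15A-203 (71.4%) ahead of its MANE Select RPS15A-201 (8.99%).

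RPS24 showed a known choice of a short exon next to its stop codon. The MANE Select RPS24-202 includes an exon of 22 bases at chr10:78040204-78040225 (+, GRCh38, Gencode 44), and RPS24-214 skips it. The exon starts with the stop codon, in capitals, whereas in RPS24-214 the reading frame runs on into the next exon, at chr10:78040615-78040626, for the 9 lower-case bases before its own stop. Both stretches are shown because they set the end of the protein.
RPS24-202: TGAgctggagattggatcacag
RPS24-214: ccgaaggagTAA
RPS24-214, without the short exon, took 77.9% ± 0.316 of RPS24 counts in siControl and 78.0% ± 1.28 in siDelta2-4. RPS24-202 took 5.23% ± 0.229 and 5.04% ± 0.179. The log2 fold changes of the models were -0.01 ± 0.07 and -0.07 ± 0.11, and neither passed the test.

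Of the 421 models of the members, 261 were tested and 9 were called (3.45%), 4 higher and 5 lower, beside 6.91% of all models tested (3.95% higher and 2.97% lower). In 5 cases the called model was the leading model of a gene called at the gene level. RPS28-203 had -0.67, RPS2-201 -0.73, RPS15-209 -0.29, RPS21-201 -0.28 and RPS26-204 0.73 as log2 fold changes. The other 4 called models were minor forms. Among them was an RPS2 model of 655 bases that met the count limits only through siDelta2-4. It could hardly have been called lower, so its call is not evidence of a rise.

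RPS15-210, an annotated model of 873 bases and 3 exons, was counted 63, 64 and 59 times in siControl libraries and 42, 47 and 51 times in siDelta2-4 libraries. It fell by 0.59 on the log2 scale (edgeR adjusted p = 0.0502), in the direction of its gene, and its share was 3.85% ± 0.124 and 3.12% ± 0.292. Over the alternative fits and the stricter limit of 0.05, its call was kept in 6 and lost in 7. DESeq2 was among those that lost it (DESeq2 adjusted p = 0.15). RPS10-206, an annotated model of 781 bases, was counted 56, 52 and 51 times with siControl and 83, 83 and 122 times with siDelta2-4. It rose by 0.67 ± 0.17 (edgeR adjusted p = 0.0198) and its share of RPS10 went from 1.96% ± 0.0602 to 3.05% ± 0.349, while the gene itself had a log2 fold change of 0.00. The call of RPS10-206 was kept in 11 of these alternatives and lost in 2.

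An unannotated model of RPS25 with 5 exons, which lacks 3′ exons of the annotation, was counted 66, 61 and 76 times with siControl and 104, 107 and 116 times with siDelta2-4. It rose by 0.51 ± 0.15 (edgeR adjusted p = 0.0529), with shares of 3.86% ± 0.757 and 5.79% ± 0.222. Its call was kept in 5 of the alternatives and lost in 8, among these DESeq2 (DESeq2 adjusted p = 0.153). The RPS25 gene, a protein of the head used by several viral internal ribosome entry sites, had a log2 fold change of -0.12.

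RPS2 was the one member called for transcript usage, the test of whether the models of a gene moved apart, among 30 members tested (3.33%, beside 0.618% of all genes tested, edgeR adjusted p = 0.0676). Its annotated RPS2-201, with 7 exons, held 68, 102 and 126 counts with siControl and 63, 66 and 74 with siDelta2-4. As shares of RPS2 these were 50.4% ± 8.30 and 41.1% ± 1.25, and siControl library 1 lay within the range of siDelta2-4. A model of 655 bases and 4 exons that lacks 5′ exons held 4, 6 and 3 counts with siControl and 13, 15 and 15 with siDelta2-4. Its share was 2.30% ± 0.879 and 8.72% ± 0.497, with a log2 fold change of 1.52 ± 0.41 (edgeR adjusted p = 0.0316). Every unannotated model of the members had at least 5 counts in each siDelta2-4 library. A fall from these siControl counts could thus hardly have been recorded, and neither this p-value nor the usage test takes that into account.

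**Figure D5:**
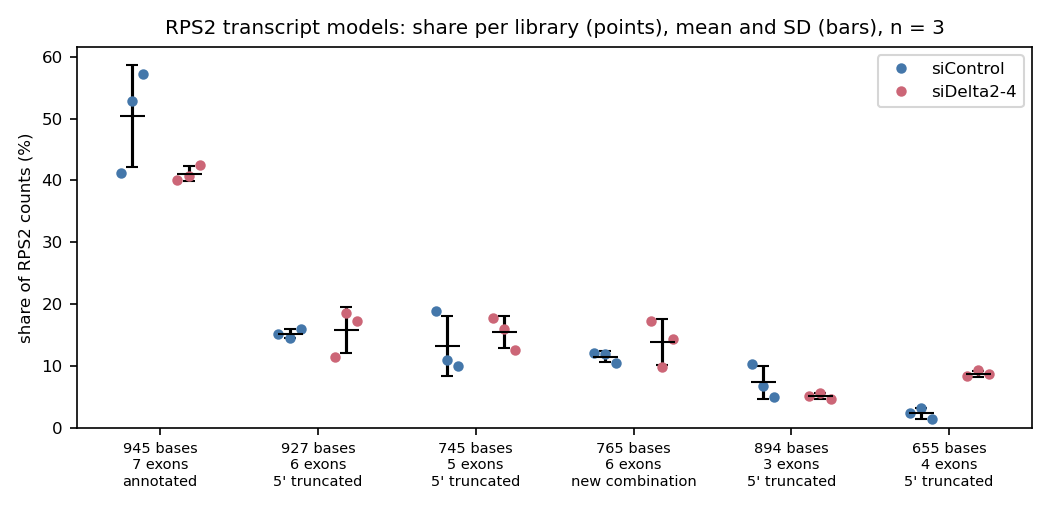
Share of RPS2 counts (y axis, percent) on each of its 6 transcript models, in siControl (blue) and siDelta2-4 (red) libraries, with mean and SD (n = 3 each). The annotated model is lower in siDelta2-4 than in 2 of the 3 control libraries, and the shortest model, at the right, is higher in all 3 siDelta2-4 libraries.

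The table itself bears on this model and on the other unannotated models, whose counts also enter the gene sums, library totals and shares by class. All 251 unannotated models of the members had at least 5 counts in each siDelta2-4 library, while 35 of them had fewer in at least 1 siControl library. By these counts, an unannotated model that was low in siDelta2-4 did not enter. The filter stated by the study names no group, so this limit is read from the table. The called RPS25 model falls under this limit too, but lay far above it in every library. Whether the limit acts alike outside the members was not tested. Likewise 20 annotated models of the members had no count in siControl, and 0 had none in siDelta2-4. The usage call of RPS2 was lost when every library had to reach 10 counts, a filter that drops the shortest model and the 3-exon model (edgeR adjusted p = 0.707). It was also lost in 4 of the 6 fits that left out a library, where the adjusted p of edgeR reached 0.249. Usage had an unadjusted p under 0.05 in 3 members, beside 9.63% of all genes tested, and RPS25 and RPS10 did not pass the adjustment.

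Genes that act with the small subunit were compared from 3 further lists. Of 42 factors that assemble the subunit in the nucleolus and cytoplasm, 10 passed the count filter and edgeR called 0, with 0 at an unadjusted p under 0.05 and 0 by DESeq2. Of 14 other proteins listed as associated with the subunit, RACK1 and MCTS1 were tested. RACK1, a scaffold on the head, had 1960, 1860 and 2040 CPM in siControl and 2070, 2090 and 2130 in siDelta2-4, a log2 fold change of 0.10 ± 0.08 that did not pass.

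Of 29 initiation factors listed with the subunit, 19 were tested. Of these, 5 (26.3%) were called higher and 0 lower, beside 7% called higher among all genes. The median log2 fold change was 0.22, beside 0.03 for all genes and -0.08 for the subunit's own proteins. EIF3F, a subunit of the eIF3 scaffold, had 30.2, 45.1 and 66.1 CPM in siControl and 70.2, 82.9 and 87.5 in siDelta2-4, with a change of 0.77 ± 0.19 (edgeR adjusted p = 0.014). EIF1AX, which helps the subunit scan, rose by 0.77 ± 0.28 (edgeR adjusted p = 0.0918) on 11 to 28 counts per library. EIF2S2, a subunit of the factor that brings the initiator tRNA, rose by 0.57 ± 0.16 (edgeR adjusted p = 0.024). The groups did not overlap in any of these 3 genes, and in 6 of the 19 tested, beside 26% of all genes. DESeq2 called 3 of the 19, beside 13.7% of all genes called in either direction. Fits that left out a library, removed the length trend or dropped the count filter were not summarised for this list. EIF3F, EIF1AX and EIF2S2 had mean model lengths of 6668, 4353 and 2474 bases. Whether model length or low counts bear on the contrast with the subunit's own proteins was not tested.

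The large subunit was the list most like the members. Of its 50 genes, 49 were tested, 7 fell and 2 rose (18.4% called), with 38 below 0 and a median log2 fold change of -0.09. The members had 15.2% called and a median of -0.08. These values lie close together, and no test of the difference between the subunits was made.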

How the data were processed

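Calu-6 RNA was sequenced as long-read PCR-cDNA in 3 siControl and 3 siDelta2-4 libraries. The deposited values were raw counts of reads per transcript model, which the authors made by aligning to GRCh38.p14 with minimap2 2.14, sorting with SAMtools 1.13, correcting with TranscriptClean and annotating with TALON against Gencode 44. The authors state a filter of identified transcripts on at least 5 reads in 3 samples, and name no group. In the table the unannotated models of the members all met 5 counts in each siDelta2-4 library, and annotated models went lower. Columns were assigned to groups by the siRNA in their names. The members, lists and named genes were chosen with earlier results of these data known. Named were called members, the 3 highest and 3 lowest changes and levels, RPS27A, FAU, RPS27, RPS27L, RPSA, members with called models or usage, and up to 3 called genes per direction of other lists. RPS28 and RPS26 count under several of these. For 4 members, which stay in every count and test, single values are not reported here.

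Counts were summed per gene. The main test, run in R 4.3.3, was the two-sided quasi-likelihood test of edgeR 4.0.16 between the 2 groups with no covariate, after filterByExpr and TMM scaling, at an adjusted p under 0.1. Models were tested likewise, and usage with diffSpliceDGE. The SE is the log2 fold change over the square root of F. CPM used TMM-scaled totals. DESeq2 1.42.0, other scalings and filters, a length trend, a block on the column number and each library left out were alternatives. The code was tested on simulated data. Precision follows the counts: 7 members had fewer than 2000. PCR reads are not independent molecules.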

Additional observations from a re-analysis of the deposited data

How the results depend on the processing

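The main counts were 4 members called lower and 1 higher, 31 below 0, 9 models and 1 gene by usage. The models include the RPS2 model of 655 bases, which met the count limits only through siDelta2-4, and the usage gene is RPS2. Members called lower numbered 2 at an adjusted p under 0.05, and 10 after a loess trend of the changes on transcript length was removed, where RPS21 was lost (-0.14, edgeR adjusted p = 0.218). Leaving out 1 library gave 0 to 13 called lower, 0 to 1 called higher, 1 to 24 models and 0 to 2 genes by usage. The lowest gene and model counts came without siDelta2-4 library 2, where 2.25% of all genes were called lower. The highest lower-call, model and usage counts came without siControl library 3, where 11.9% of all genes were called lower. Shares of all genes or models were not taken at an adjusted p under 0.05, nor for model and usage counts outside the main fit. Over all genes tested, same-numbered columns did not deviate together (correlations of 0.0390, -0.1355 and -0.0843). These values, from 3 libraries per group, cannot decide whether the numbers pair the libraries. A replicate block on the number gave 2 members called lower (3.29% of all genes) and 1 higher. It gave 0 by usage, with 3 at an unadjusted p under 0.05. Usage calls were also 0 at an adjusted p under 0.05, and 0 with at least 10 counts in every library, with 2 at an unadjusted p under 0.05. DESeq2 called 4 models, 3 members lower (not RPS28, 8.69% of all genes) and 1 higher. With library totals as the scale, which takes the median of all genes from 0.027 to 0.095, 20 members were below 0 and the split was 3 lower (3.91% of all genes) and 1 higher. Counts on all models of the members, divided by the total of known models alone, gave a ratio of 18.2% to 19.5%. This ratio, which is not a share since its denominator lacks unannotated models, differed by -0.509 points between the groups. The members' share of the full library count differed by -0.0966 points, and by -0.26 to 0.0382 when a library was left out. Changes near 0 turned sign. RPS10 had -0.022 with DESeq2 and with its size factors, -0.013 with TMM without ribosomal and mitochondrial genes, -0.012 without a filter, and -0.061 to 0.08 leaving out a library. RPS23 had 0.063 with library totals, 0.00087 with at least 10 counts, and -0.072 to 0.06 leaving out a library. With that shift of all genes, library totals gave 0.015 for RPS20, 0.016 for RPS14, 0.0069 for RPS27A and 0.041 for FAU, and the length trend 0.057 for RPS20, 0.083 for FAU and 0.05 for RPS27. Leaving out a library gave -0.10 to 0.0057 for FAU and -0.31 to 0.13 for RPS27. The causes of these shifts were not tested. The 5 called members kept their sign under every alternative listed in the methods. Depth limits RPS26, RPS28, RPS9 and RPS27 most, each with under 500 counts.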
